A study of Arvicanthis niloticus with 5 samples.

Results

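The DNA repair genes of the Nile rat eye were taken from the deposited table by symbol. A gene belonged to the set where the first symbol given for a transcript, in the order mouse, rat, human, named a known repair family, such as the ERCC, XRCC, RAD, MSH, MLH, PARP and FANC genes, or a single repair gene such as XPA, OGG1, APEX1 or ATM. The rule used names only and no measured value. It found 78 of 13982 named genes, carried by 87 transcripts, and symbols are written here in capitals.

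Nile rats (Arvicanthis niloticus) are day-active African rodents, so their eyes work in bright light. The labels give 5 samples of eye RNA from wild-type rats, numbered 1, 3, 5, 7 and 9, all in 1 group and with no treatment, age, sex or time of day. RNA of 5 rats went into 1 pooled library per the labels' protocols, and the deposited table has a single column of levels for the whole series, which is treated here as that pool. A comparison between groups or animals could therefore not be made, no p-value is given, and each level is 1 value of the pool, followed in brackets by a 95% interval that covers counting error only. The unit is FPKM, the fragments per kilobase of transcript and per 1000000 mapped fragments, which allows levels of different genes to be set side by side.

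DNA damage is removed by several pathways that share few proteins. Nucleotide excision repair cuts out bulky lesions such as those made by ultraviolet light, base excision repair removes oxidised, deaminated or methylated bases, and mismatch repair corrects copying errors. Double-strand breaks are closed by end joining in any phase of the cell cycle, or by homologous recombination, which copies the sister chromatid and so works mainly in dividing cells; the Fanconi anaemia proteins unhook crosslinks between the strands. Most cells of a mature eye, including photoreceptors and lens fibres, no longer divide.

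Markers of the labelled tissue were present. The file states 64967222 mapped fragments. All 10 photoreceptor markers lay between 13.1 (NRL) and 344 FPKM (GNAT1), and all 9 lens fibre markers between 194 (MIP) and 3621 FPKM (CRYGB). Markers of skeletal muscle (5 of 5 measured, 28.6 to 174 FPKM), immune cells (5 of 7 measured, 1.45 to 70.0 FPKM) and proliferation (16 of 16 measured, 1.02 to 14.0 FPKM) were also present. Their part in the levels below was not tested, and in a bulk pool fewer cells of a type cannot be told apart from less RNA per cell.

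As a class the 78 genes of the set were expressed at low levels. Their median was 3.62 FPKM against 6.50 FPKM for all named genes. The middle span (lower to upper quartile) was 2.28 to 7.01 against 3.03 to 13.7 FPKM. This holds for the genes that the rule took in. Fixed lists of other repair genes, given below, had medians on both sides of 6.50 FPKM. These ran from 3.03 FPKM (homologous recombination) to 12.9 FPKM (nucleotide excision repair). Of the 78 genes, 72 reached 1 FPKM, a share of 92.3% beside 93.2% of all named genes. Among genes with a named transcript, detection at this level thus did not set the class apart. Every named transcript had at least 1 fragment, so a repair gene without a transcript, such as XPC or OGG1, could not count as undetected. At 10 FPKM the shares were 12.8% of the repair genes, or 10 genes, and 34.0% of all named genes. Above the median of all named genes stood 21 of the 78, or 26.9%, beside 50.0% by definition. Together the 78 genes were 0.558% of the named genes and held 0.220% of their FPKM. The 5 highest (DDB1, RAD23B, RAD9, DDB2 as a sum of 2 transcripts, and RAD9A) held 37.0% of the FPKM of the set.

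**Figure D1:**
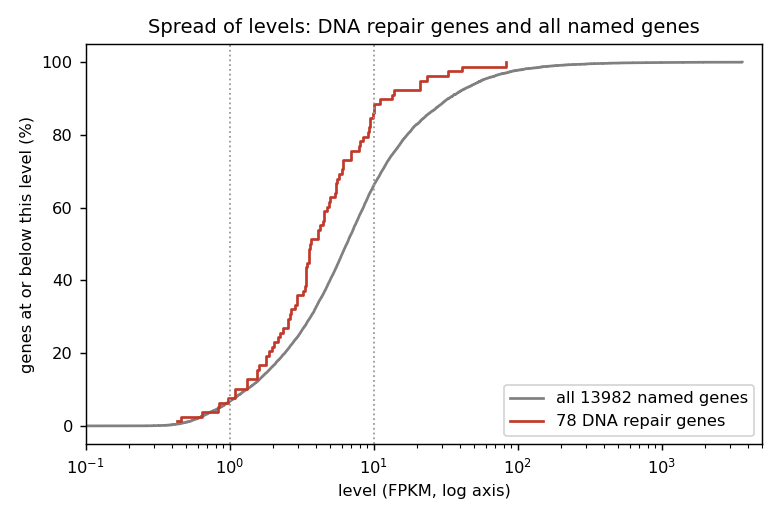
Share of genes at or below each level (vertical axis, percent) against the level in FPKM (log axis), for the 78 DNA repair genes (red) and all 13982 named genes (grey); dotted lines mark 1 and 10 FPKM. The curves run together near 1 FPKM and part above it: 62 of the repair genes (79.5%) lay from 1 up to 10 FPKM, against 59.3% of the named genes.

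Sorted by role, nucleotide excision repair was the only one of the 11 groups whose median exceeded that of all named genes, except that without transcripts of under 1000 nt mismatch repair did so too, by 0.040 on the log2 scale, as did the group of other symbols, by 1.42. The medians ran from 8.42 FPKM in nucleotide excision repair through mismatch repair (5.73), the PARP family (5.52), translesion synthesis (4.77), end joining (4.52) and base excision repair (3.54) to the damage checkpoint (2.89), homologous recombination (2.84) and Fanconi anaemia (2.12). This order depended on naming and length. Relative to all named genes on the log2 scale, translesion synthesis moved from -0.45 to -1.53 with human names first, below the damage checkpoint and homologous recombination, and to -0.95 with differing names left out. Base excision repair moved from -0.88 to -0.42 with human names first and to -0.15 without transcripts of under 1000 nt. The other groups were a single meiotic gene and 3 other symbols placed in none of these roles (RAD9, RAD21 and XRCC6BP1). Groups of 1 to 13 genes were compared without a test, and neighbours in this order overlapped widely in the levels of their members.

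**Figure D2:**
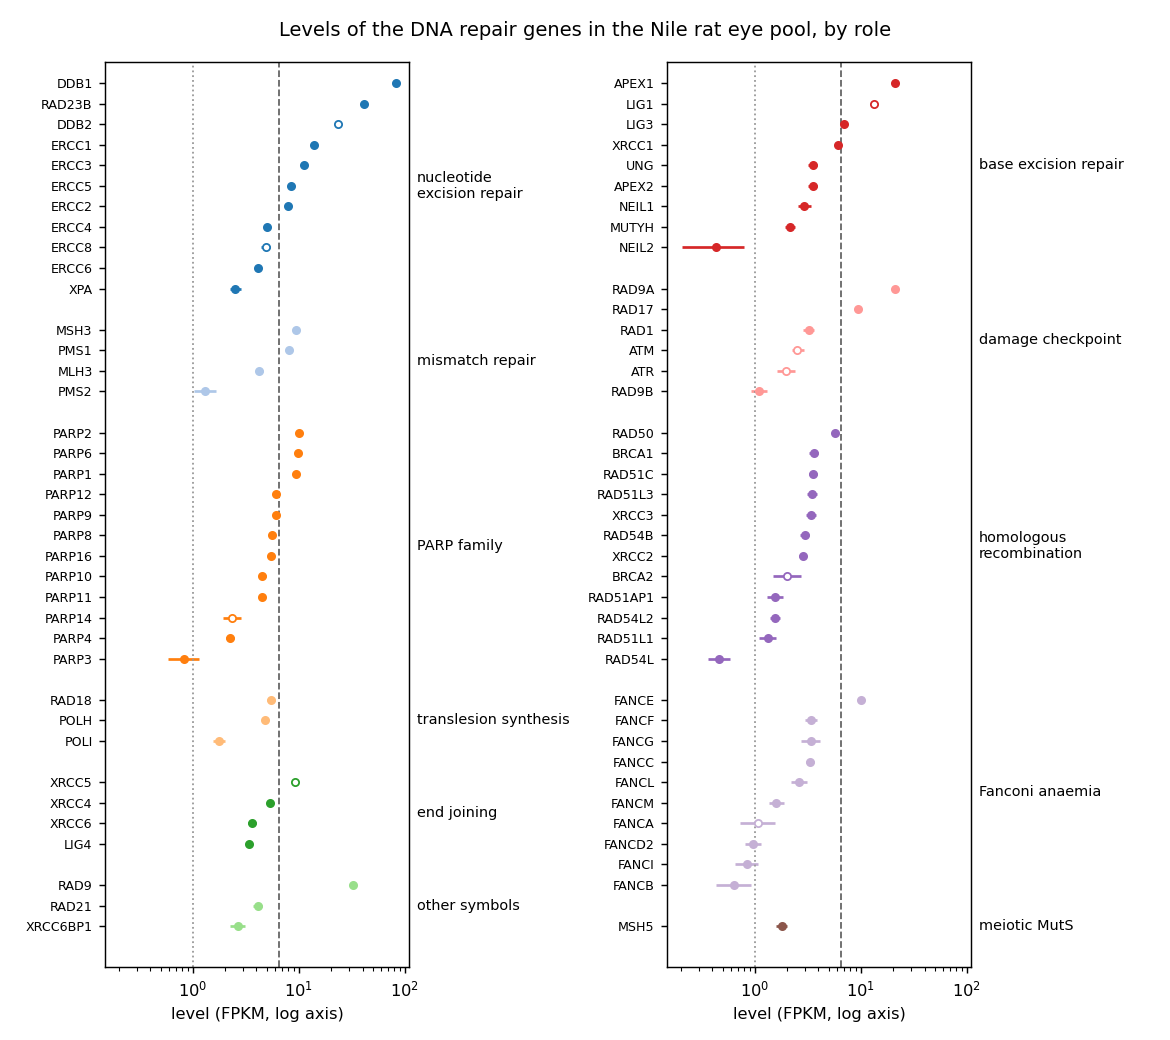
Level of 75 of the 78 genes in FPKM (log axis) with its 95% counting interval, grouped by role in order of the group median, left panel first. Filled points rest on 1 transcript and open points on the sum of 2; the dotted line marks 1 FPKM and the dashed line the median of all named genes (6.50 FPKM). Nucleotide excision repair reaches from 2.53 to 82.7 FPKM, while the genes of homologous recombination all lie left of the dashed line.

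Nucleotide excision repair held the highest gene of the set. DDB1 stood at 82.7 FPKM [80.6 to 84.8], above 97.0% of all named genes, on 1 transcript of 1148 nt. Whether this transcript is the whole mRNA was not tested. DDB1 carries damage-recognition subunits on the CUL4 ubiquitin ligase and serves that ligase in many other processes. Its partner DDB2, which binds ultraviolet photoproducts in chromatin, was at 23.5 FPKM [22.1 to 25.0]. DDB1 was thus 3.52-fold [3.29 to 3.75] above DDB2. DDB2 was the sum of transcripts of 563 and 860 nt at 12.1 and 11.4 FPKM, named from the human column alone; if these are pieces of 1 mRNA the sum is too high, and with the higher transcript alone the log2 ratio of DDB1 to DDB2 moved from 1.81 to 2.78.

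RAD23B, which holds the lesion sensor XPC and also escorts ubiquitinated proteins to the proteasome, was at 40.9 FPKM [40.1 to 41.7] on the most fragments of any member, 10588. No transcript carried the symbol XPC, so the sensor was not analysed here. The other members of this pathway all lay below DDB1, RAD23B and the summed DDB2. With its higher transcript alone, DDB2 (12.1 FPKM) lay below ERCC1 (13.9 FPKM). The TFIIH helicases that open the DNA stood at 11.2 FPKM for ERCC3 and 7.95 FPKM for ERCC2, a 1.40-fold difference [1.32 to 1.49]. XPA, which verifies the lesion, was the lowest member of the pathway at 2.53 FPKM [2.25 to 2.84].

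The nucleases that cut out the damaged stretch were unequal. ERCC1, the non-catalytic partner of ERCC4 (XPF), was at 13.9 FPKM and ERCC4 at 4.98 FPKM, although the proteins work as a pair: the ratio was 2.79-fold [2.60 to 3.00]. ERCC5 (XPG), which cuts on the other side of the lesion, was at 8.42 FPKM, 1.69-fold above ERCC4. ERCC6 and ERCC8, the Cockayne syndrome proteins that start repair at a stalled RNA polymerase, were at 4.14 and 4.91 FPKM. ERCC8 was higher by a factor of 1.19 [1.07 to 1.32] as a sum of 2 transcripts of similar length (1306 and 1433 nt), but with the higher transcript alone the order turned, to a log2 ratio of ERCC6 to ERCC8 of 0.72.

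Other genes of this pathway, from a list that the rule did not supply, were also abundant. Of 17 symbols, 15 were measured, none was under 1 FPKM, 9 were at 10 FPKM or more, and the median was 12.9 FPKM. Among all named genes 93.2% reached 1 FPKM and 34.0% reached 10 FPKM. The counts at 1 FPKM in the lists of other genes below stand beside the same 93.2%. RBX1, the RING subunit of cullin ligases, was at 106 FPKM and CUL4A, the scaffold to which DDB1 docks, at 35.5 FPKM. XAB2, which binds XPA and also acts in splicing, was lowest at 3.24 FPKM, and the TFIIH subunit GTF2H1 was at 4.33 FPKM.

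Among the base excision genes of the set, the highest was a nuclease. APEX1, which cuts the DNA backbone at a site that has lost its base, was at 21.1 FPKM [20.1 to 22.1] and its relative APEX2 at 3.53 FPKM [3.21 to 3.88], a 5.96-fold difference [5.37 to 6.62]. The glycosylases that remove the damaged base were all lower. UNG, which removes uracil, was at 3.54 FPKM, NEIL1, for oxidised pyrimidines, at 2.95 FPKM, and MUTYH, which removes adenine opposite oxidised guanine, at 2.16 FPKM. NEIL2 was the lowest of all 78 genes at 0.432 FPKM [0.207 to 0.795]. It rested on 10 fragments of a 356 nt transcript, so the 6.82-fold ratio of NEIL1 to NEIL2 carried an interval of 3.61 to 12.9. No transcript carried OGG1, the glycosylase for oxidised guanine itself, or NEIL3.

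For sealing, the scaffold XRCC1 (6.16 FPKM) and its ligase LIG3 (6.99 FPKM) were within a factor of 1.13 [1.04 to 1.23]. LIG1, the ligase of replication and long-patch repair, summed to 13.4 FPKM over transcripts of 3084 and 2622 nt at 6.93 and 6.43 FPKM. The sum placed LIG1 1.91-fold above LIG3, whereas the higher transcript alone left them level, at a log2 ratio of LIG3 to LIG1 of 0.012. In the fixed list of other base excision genes, 12 of 12 were measured and reached 1 FPKM, with a median of 8.21 FPKM. HMGB1, an abundant chromatin protein, was highest at 62.5 FPKM, followed by the uracil glycosylase SMUG1 at 9.50 FPKM, while the thymine glycosylase TDG (2.97 FPKM) and APLF (3.22 FPKM) were lowest.

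The PARP family, enzymes that attach ADP-ribose to proteins, was level at its top. PARP2 was at 10.02 FPKM [9.45 to 10.6] and PARP1, the main sensor of strand breaks, at 9.36 FPKM [8.99 to 9.75]. The log2 ratio of PARP1 to PARP2 was -0.098 [-0.20 to 0.0033], so these levels were not told apart at this depth. PARP3, which acts in break repair, was low at 0.834 FPKM [0.587 to 1.15], on 37 fragments of a 683 nt transcript. The other 9 members, most of which are known for roles outside DNA repair, lay between 2.25 FPKM for PARP4 and 9.90 FPKM for PARP6.

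Mismatch repair genes were of middle level. MSH3, which recognises larger loops, was the highest of the 6 genes at 9.42 FPKM [9.05 to 9.81], and no transcript carried MSH6, which recognises single mismatches. Of the MutL relatives that act after recognition, PMS1 was at 8.02 FPKM, MLH3 at 4.25 FPKM, and PMS2, which has the main nuclease role, was lowest of the 6 at 1.32 FPKM [1.03 to 1.67]. PMS1 was 6.09-fold [4.79 to 7.74] above PMS2, but PMS2 was represented by 1 transcript of 812 nt, named in mouse only, with 69.5 fragments. Of the other genes of the pathway, 11 of 11 were measured, 10 of them at 1 FPKM or more, and their median was 6.85 FPKM. The sliding clamp PCNA (14.0 FPKM) and the clamp loader subunit RFC2 (12.7 FPKM) were highest and the nuclease EXO1 (0.741 FPKM) and RFC5 (2.38 FPKM) lowest. MSH5, which acts in meiosis, was at 1.79 FPKM.

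The end-joining genes differed less among themselves. XRCC5 (Ku80) was at 9.16 FPKM and XRCC6 (Ku70) at 3.66 FPKM, although these form a fixed pair that caps broken ends. The 2.50-fold ratio [2.27 to 2.77] rested on adding XRCC5 transcripts of 2385 and 2570 nt; with the higher one alone the log2 ratio of XRCC6 to XRCC5 was -0.39 in place of -1.32, and no longer past 2-fold. XRCC4, the scaffold of the final ligation, was at 5.38 FPKM and its ligase LIG4 at 3.40 FPKM, a 1.58-fold difference [1.44 to 1.74]. The 7 that were measured of 9 other symbols had a median of 3.22 FPKM. NHEJ1 (2.28 FPKM) and TDP2 (2.31 FPKM) were lowest, and the gap-filling polymerase POLL was at 7.31 FPKM.

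The 13 homologous recombination genes of the set were low. RAD50, a subunit of the complex that trims broken ends, was highest at 5.73 FPKM [5.38 to 6.09], so none of the 13 genes reached the median of all named genes. The 5 genes of the RecA-like accessory group, which help recombination filaments to form, lay between 1.32 FPKM for RAD51L1 (an older symbol of RAD51B) and 3.56 FPKM for RAD51C. RAD51C and XRCC3, which form a complex, were at 3.56 and 3.41 FPKM, with a log2 ratio of 0.062 [-0.14 to 0.26], and RAD51L3 (RAD51D) and XRCC2, partners in another, were within a factor of 1.22 [1.07 to 1.40].

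BRCA1, which promotes end resection, was at 3.59 FPKM [3.25 to 3.96]. BRCA2, a mediator of strand exchange, was at 2.03 FPKM [1.49 to 2.71], but on 47 fragments of transcripts of 371 and 324 nt. The log2 ratio of BRCA1 to BRCA2 was 0.82 [0.38 to 1.26], and with the higher BRCA2 transcript alone (1.37 FPKM) it was 1.39, past 2-fold. RAD54L, a motor protein that acts on DNA during strand exchange, was lowest at 0.463 FPKM [0.361 to 0.585]; its relative RAD54B was at 2.96 FPKM [2.70 to 3.23]. RAD54L2, a chromatin remodeller placed in this list for its name, was at 1.56 FPKM. Of 17 other symbols of the pathway, 11 were measured and 9 reached 1 FPKM, with a median of 3.03 FPKM. NBN, which joins RAD50 in the end-trimming complex, was highest at 11.3 FPKM, followed by RMI1 at 7.56 FPKM, and PALB2, which links BRCA1 to BRCA2, was lowest at 0.570 FPKM on 8 fragments of a 216 nt transcript, next to EME1 at 0.608 FPKM.

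Fanconi anaemia genes had the lowest median of any pathway. Of the 8 core complex genes, 7 reached 1 FPKM. FANCE, which docks the substrate, stood apart at 9.99 FPKM [9.41 to 10.6], and the next were FANCF at 3.40, FANCG at 3.39 and FANCC at 3.35 FPKM. FANCL, the ubiquitin ligase subunit, was at 2.63 FPKM, the DNA translocase FANCM at 1.60, FANCA at 1.08 and FANCB at 0.644 FPKM. FANCA reached 1 FPKM only as the sum of transcripts of 493 and 345 nt at 0.593 and 0.491 FPKM. The substrate pair FANCD2 and FANCI, whose ubiquitination is the central step, was at 0.971 [0.819 to 1.14] and 0.844 FPKM [0.650 to 1.08], with a log2 ratio of FANCI to FANCD2 of -0.20 [-0.63 to 0.22]. Of 11 other symbols, 5 were measured and all 5 reached 1 FPKM. WDR48 and USP1, which together remove that ubiquitin, were highest at 22.1 and 7.81 FPKM, and UBE2T, the enzyme that delivers it, was lowest at 1.36 FPKM, with the histone-fold protein APITD1 at 4.01 FPKM.

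**Figure D3:**
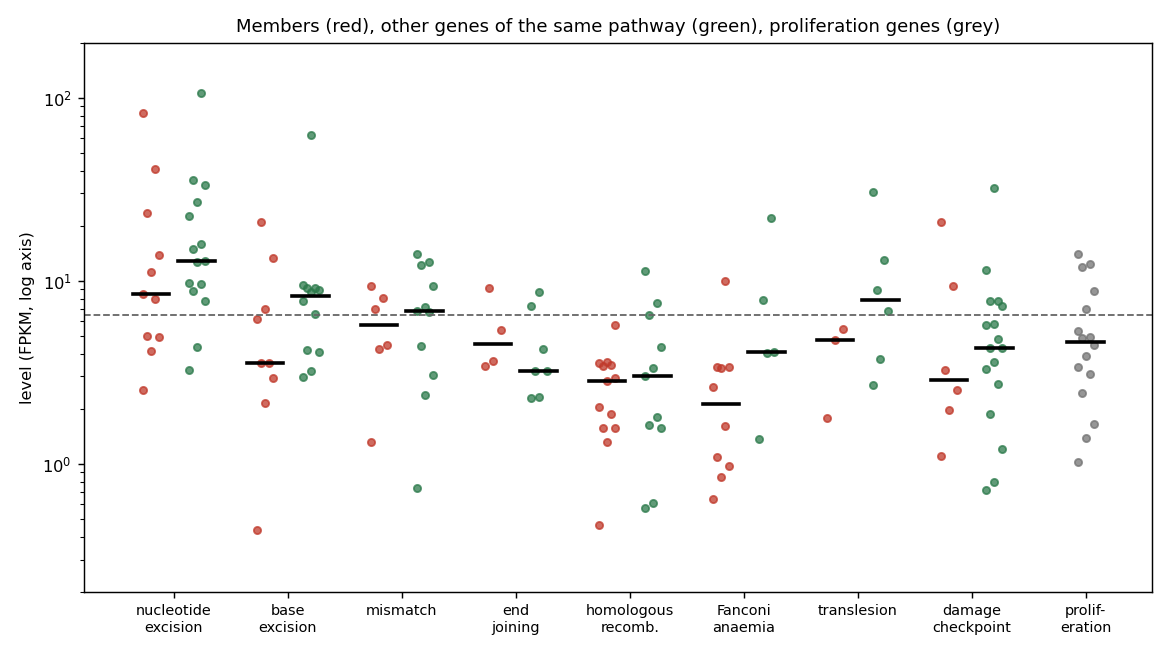
Levels in FPKM (log axis) of the repair genes (red), of other genes of the same pathway from fixed lists (green) and of 16 proliferation genes (grey); each point is 1 gene, black bars are medians and the dashed line is the median of all named genes. The members of homologous recombination (2.84 FPKM) and Fanconi anaemia (2.12 FPKM) have medians below that of the proliferation genes (4.65 FPKM). So do the members of end joining (4.52), base excision repair (3.54) and the damage checkpoint (2.89). The nucleotide excision groups (8.42 and 12.9 FPKM) lie above it, as do the members of mismatch repair (5.73) and translesion synthesis (4.77).

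The proliferation list is given because recombination and crosslink repair are known to be used in dividing cells. Its 16 genes had a median of 4.65 FPKM. PCNA (14.0 FPKM) was highest and MKI67 (1.02 FPKM) lowest. MKI67 and TOP2A (2.42 FPKM), made in dividing cells, both lay within the wide range of the 10 Fanconi anaemia members (0.644 to 9.99 FPKM). Across 1 pool it cannot be told whether these genes vary together.

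Translesion polymerases copy past lesions that stop the replicative enzymes. POLH, which passes ultraviolet photoproducts accurately and is lost in the variant form of xeroderma pigmentosum, was at 4.77 FPKM [4.51 to 5.04]. POLI, its close relative, was at 1.78 FPKM [1.56 to 2.03], so POLH was 2.67-fold [2.33 to 3.07] above it. RAD18, the ligase that calls these polymerases to stalled forks, was at 5.46 FPKM. Of 9 other symbols 6 were measured, all above 1 FPKM, with a median of 7.87 FPKM. UBE2B, a conjugating enzyme that works with RAD18, was highest at 30.6 FPKM, followed by REV1 at 13.1 FPKM, and HLTF (2.68 FPKM) and SHPRH (3.75 FPKM) were lowest.

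Of the checkpoint kinases, ATM, which responds to double-strand breaks, was at 2.53 FPKM [2.23 to 2.90]. ATR, which responds to stalled replication, was at 1.97 FPKM [1.62 to 2.39], a ratio of ATM to ATR of 1.29 [1.03 to 1.60]. Both levels were sums of 2 transcripts. With the higher transcript alone ATM was at 2.15 FPKM and ATR at 1.47 FPKM, and their log2 ratio moved from 0.36 to 0.55. RAD17, which loads the checkpoint clamp, was higher at 9.35 FPKM, and the clamp subunit RAD1 was at 3.24 FPKM. RAD9B, a relative of the clamp subunit RAD9A, was at 1.10 FPKM. Of 21 other symbols 17 were measured and 15 reached 1 FPKM, with a median of 4.31 FPKM. The stress-response genes GADD45A (32.0 FPKM) and GADD45G (11.5 FPKM) were highest and the ATR effector kinase CHEK1 (0.722 FPKM) and its mediator CLSPN (0.798 FPKM) lowest. For direct reversal of alkylation damage, MGMT was at 5.69 FPKM and ALKBH2 at 8.80 FPKM.

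RAD9A, the remaining clamp subunit, could not be given a secure level. A transcript of 3080 nt named RAD9A in human alone was at 21.1 FPKM, 6.51-fold above RAD1, and another of 3093 nt was at 32.6 FPKM and carried the mouse name Rad9 but the rat name Ppp1ca, a protein phosphatase. Both had fractional fragment counts (4217.6 and 6544.0), so fragments had been divided with other transcripts. In the Nile rat RefSeq annotation (assembly mArvNil1.pat.X) Ppp1ca precedes Rad9a directly and the annotated spans overlap, and no transcript carried the symbol PPP1CA first. Which of these genes the fragments came from was not tested. The rule kept RAD9 and RAD9A apart by symbol, so the 78 members may count the same gene under both symbols. With both transcripts left out, the median of the repair genes was 3.57 FPKM.

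**Figure D4:**
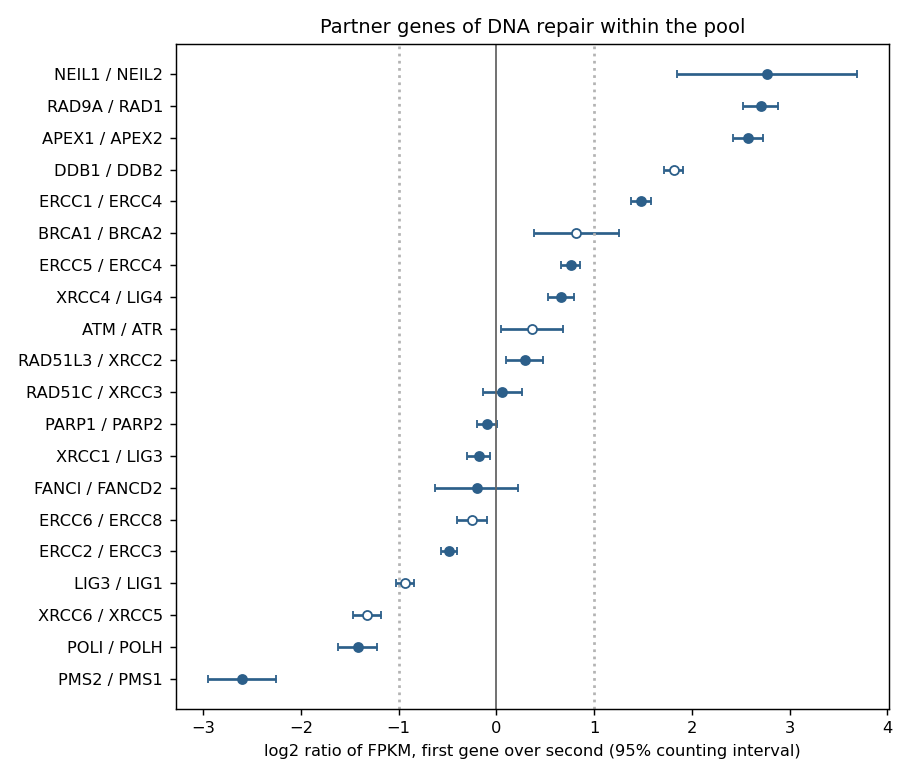
Log2 ratio of FPKM for 20 pairs of partner or alternative genes, first gene over second, with 95% counting intervals; open points involve a gene summed over 2 transcripts, and dotted lines mark 2-fold. In 8 pairs the ratio was past 2-fold, and in 3 (PARP1 and PARP2, RAD51C and XRCC3, FANCI and FANCD2) the interval held 0.

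Partner genes were compared as a set of ratios. Of the 24 pairs considered, 20 could be measured, and 8 differed by more than 2-fold. The partners in a stable complex that differed so were ERCC1 and ERCC4, DDB1 and DDB2, XRCC5 and XRCC6, and RAD9A and RAD1. Among them, XRCC5 and XRCC6 came under 2-fold with the higher XRCC5 transcript alone, and RAD9A had no secure level. Each of these pairs also held a gene that overlaps another protein-coding gene in the RefSeq annotation: ERCC1, DDB2, XRCC6, and both RAD9A and RAD1. The part of such overlaps in the ratios was not tested. The other 4 pairs past this mark were relatives that act separately or in turn: APEX1 and APEX2, NEIL1 and NEIL2, PMS1 and PMS2, POLH and POLI. Without transcripts of under 1000 nt, 16 pairs remained and 5 of these were past 2-fold.

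Depth and transcript length bore on the lowest members. The fragments behind a gene ran from 10 to 10588, with a median of 573.6. For 5 genes the interval held 1 FPKM, and for 3 (NEIL2, RAD54L and FANCB) it lay below. Of the 6 genes under 1 FPKM, 3 had no transcript of 1000 nt, against 8 of the 72 others. Among all named genes with no transcript of 1000 nt (2253 genes), 65.8% reached 1 FPKM around a median of 2.03 FPKM, against 98.5% and 6.93 FPKM among those with one. Within the 67 repair genes that had a transcript of at least 1000 nt the median was 4.43 FPKM, still under the 6.93 FPKM of named genes of that length.

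**Figure D5:**
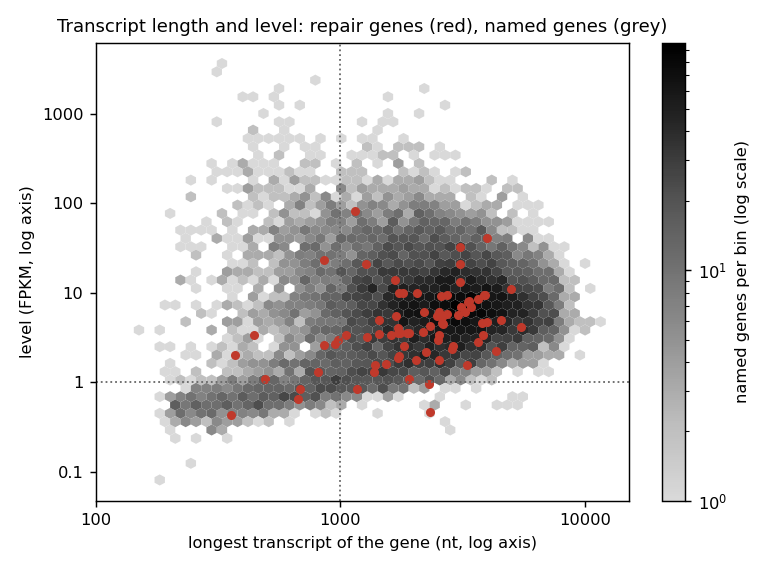
Level in FPKM against the longest transcript of the gene in nt (both log axes) for the 78 repair genes (red points) and all named genes (grey bins, darker for more genes); dotted lines mark 1000 nt and 1 FPKM. The named genes have a lower edge that rises with length, and RAD54L (0.463 FPKM, 2328 nt) lies at that edge for its length.

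RAD54L was among the lowest genes of its length. Of the 3310 named genes whose longest transcript was between 2000 and 3000 nt, 3287 reached 1 FPKM, and 2 were lower than RAD54L. FANCD2, at 2291 nt, was also among the 23 genes of this length under 1 FPKM, with 18 below it. These genes were singled out after their values were seen.

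Naming limited the account of some members. A single transcript carried 69 of the 78 genes, and 9 were sums of 2. Symbols in all 3 species stood behind 9 genes and in 1 species behind 22. Names differed between species for 8 genes, of which RAD9 was the one named for another known gene, as far as the names could be read. Of the 78 symbols, 76 had a Nile rat RefSeq gene, and 19 of these overlapped another protein-coding gene there, among them DDB2 with Acp2, XPA with Ncbp1 and RAD50 with Irf1. The counting is not stated to use strand, so fragments of overlapping genes could not be assigned further. Of the symbols placed in none of the roles, RAD21, a cohesin subunit, was at 4.09 FPKM and XRCC6BP1, a Ku-binding protein homologous to a mitochondrial protease, at 2.66 FPKM.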

How the data were processed

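Eye RNA of 5 wild-type Nile rats was pooled and sequenced. Per the file headers, the authors deposited for each of 124439 transcripts an FPKM, an estimated count of fragments that need not be whole (39.3% were fractional), and a length. Bowtie is named in the submitters' processing notes. No source used here gives its version, the way transcripts were assembled or a genome build. The deposited FPKM equals the count divided by length and by the stated 64967222 fragments, within a relative tolerance of 1e-05. The table has no column per sample.

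Names came from the deposited ortholog table (first symbol of mouse, rat, human; Ensembl and GenBank identifiers passed over), which named 15454 transcripts. FPKM was summed per gene. Level intervals are 95% Poisson intervals (exact for 1 transcript, gamma for sums), and ratio intervals use the delta method. Both were tested on simulated Poisson counts, the model that the intervals assume, so that model itself was not tested. The intervals hold no animal-to-animal variation, no error of dividing fragments, and PCR copies are not independent molecules. Detected means at least 1 FPKM.

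Members and lists were chosen with earlier results of these data known. Named in full were the members of 24 partner pairs and the 2 highest and 2 lowest of each list; some of these genes and pairs are not reported here, and such genes still count in the totals of their lists. RAD51L1 and RAD51L3 were read as RAD51B and RAD51D. Planned checks that need samples (leaving samples out, replicate numbers) could not be run. Alternatives covered transcript combination, name order, differing names, transcript length, scale, detection level and a pseudocount. Computation was done in Python 3.11.15 (SciPy 1.17.1, pandas 2.3.3, NumPy 2.4.6) and plots were drawn with Matplotlib 3.10.9.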

Additional observations from a re-analysis of the deposited data

Results flagged for a closer look

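Signal for repair polymerases lay on transcripts that the choice of genes left out. A transcript of 1231 nt named POLB in rat and human carried a clone name in mouse and so was not a member. POLB, the gap-filling polymerase of base excision repair, was at 12.9 FPKM [12.2 to 13.7], which is above APEX2, XRCC1 and LIG3. A transcript of 3170 nt named POLK in human carried the older mouse name Dinb1. POLK, a translesion polymerase, was at 2.25 FPKM [2.05 to 2.46], below POLH and above POLI. Both levels were above what a count of 0 allows (3 fragments, or 0.0375 and 0.0146 FPKM).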

How the results depend on the processing

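With 1 pooled column, no sample could be left out. No paired analysis was possible because the table has no column per sample. The 72 detected genes became 64 to 78 under the other settings for naming, combination, length and scale and at 0.5 FPKM, and 29 at 5 FPKM. The 64 were of 67 genes left without transcripts under 1000 nt, or 95.5% beside 98.4% of named genes. At 5 FPKM the shares were 37.2% of the repair genes and 59.8% of named genes. The median of 3.62 FPKM became 4.11 without transcripts under 500 nt, 4.43 without those under 1000 nt (a limit chosen after seeing the data) and 14.7 after rescaling named genes to a sum of 1000000, which raised all named genes alike. It stayed below the median of all named genes in all of these settings, by a factor of 1.54 to 1.83. The share of named FPKM, 0.220%, became 0.227% with a length-weighted mean, 0.213% without differing names, 0.245% and 0.295% without transcripts under 500 and 1000 nt, and 0.199% without RAD9 and RAD9A (added after seeing the data). The pairs past 2-fold numbered 7 to 9 in place of 8, except for 5 without transcripts under 1000 nt, where 16 pairs were left. The pairs were not always the same: with the highest transcript and with a length-weighted mean, XRCC6 over XRCC5 came under 2-fold (-0.39 and -0.32) and BRCA1 over BRCA2 passed it (1.39 and 1.79). Without those transcripts the mismatch repair median (log2 over all named genes) turned to 0.040, and that of the group of other symbols to 1.42, since only RAD9 and RAD21 were left in it. With the highest transcript and with a length-weighted mean, the log2 ratios turned to 0.72 and 0.76 for ERCC6 over ERCC8, and 0.012 and 0.061 for LIG3 over LIG1; each involves a gene summed over 2 transcripts. With human names first, base excision repair gained POLB, and translesion synthesis gained POLK and lost RAD18.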
